A study of Mus musculus with 4 samples.

Results

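Xcr1 Clec9a cells are the cells of the ischemic mouse hemisphere with the marker genes of the type 1 conventional dendritic cell (cDC1). They were chosen on their own unique molecular identifiers (UMIs, each 1 captured mRNA molecule): at least 2 UMIs of Xcr1 and Clec9a together, at least 1 of the MHC class II gene H2-Aa, and 0 of Cd79a, Cd3e, Sall1 and Cldn5, which mark B cells, T cells, microglia and endothelium. The rule found 147 of 60942 kept cells. They are set against 500 Cd209a cells, which had at least 1 UMI of Cd209a, 0 of Xcr1 and Clec9a and otherwise met the same requirements.

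The study holds 4 single-cell libraries from the hemisphere on the side of a transient middle cerebral artery occlusion (tMCAO, a stroke model), dissected on day 3 and loaded on the BD Rhapsody platform with no sorting. The Ms4a3 cKO libraries (n = 2) came from mice labelled Htr2b ERCre; Ms4a3-Cre, and the Flox control libraries (n = 2) from Htr2b flox/flox littermates. All are adults labelled C57B6, male and/or female, and tamoxifen with a washout of 3 days before surgery is stated without naming a genotype. Ms4a3 is transcribed in granulocyte and monocyte progenitors, and the labels do not say what drives the ERCre or which Cre acted. Whether each library is its own animal is not stated, so the p-values speak only to the variation among these 4 libraries, part of which may be technical.

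cDC1 arise in the bone marrow from precursors that need the growth factor Flt3l and the transcription factors Irf8 and Batf3. The chemokine receptor XCR1 draws them to XCL1 released by natural killer and T cells, and the lectin CLEC9A (DNGR-1) binds actin filaments exposed by dead cells. They take up such debris, cross-present its antigens on MHC class I to CD8 T cells, and are rare in the uninjured brain, where they lie mostly in the meninges and choroid plexus.

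The 4 genes that describe the population lie on different chromosomes of GRCm38 (mm10). Xcr1 (ENSMUSG00000060509) spans 123852315 to 123862029 on the minus strand of chromosome 9, and Clec9a (ENSMUSG00000046080) 129408862 to 129424763 on the plus strand of chromosome 6. Naaa (ENSMUSG00000029413), a lysosomal hydrolase of fatty acid amides, spans 92257659 to 92278170 on the minus strand of chromosome 5. Ifi205 (ENSMUSG00000054203), an interferon-inducible gene of the PYHIN family, spans 174011998 to 174031810 on the minus strand of chromosome 1. Their start regions are shown because these genes are on together in the same cells. Each is RefSeq sequence of GRCm38.p6 from 250 bases before to 50 after the gene start, read 5′ to 3′ on the gene's own strand: chr9:123861980-123862279 (minus), chr6:129408612-129408911 (plus), chr5:92278132-92278431 (minus) and chr1:174031706-174032005 (minus). The start of a window is RefSeq's, which for Naaa and Ifi205 differs from the start of the span above. Positions of matches are counted from the start of the window's gene in RefSeq. Capitals mark matches to the interferon-stimulated response element (GAAA, any 2 bases, GAAA).
Xcr1: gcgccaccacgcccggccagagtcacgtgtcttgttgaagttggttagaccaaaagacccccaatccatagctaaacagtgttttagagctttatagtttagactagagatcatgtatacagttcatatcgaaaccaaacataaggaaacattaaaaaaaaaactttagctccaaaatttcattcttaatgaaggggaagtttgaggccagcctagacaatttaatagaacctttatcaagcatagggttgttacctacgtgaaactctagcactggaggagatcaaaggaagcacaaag
Clec9a: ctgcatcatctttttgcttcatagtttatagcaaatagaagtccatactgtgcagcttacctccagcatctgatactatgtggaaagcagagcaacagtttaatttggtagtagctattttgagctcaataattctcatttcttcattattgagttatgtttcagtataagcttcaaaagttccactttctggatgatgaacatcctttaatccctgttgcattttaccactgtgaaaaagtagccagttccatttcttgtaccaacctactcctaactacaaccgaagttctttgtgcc
Naaa: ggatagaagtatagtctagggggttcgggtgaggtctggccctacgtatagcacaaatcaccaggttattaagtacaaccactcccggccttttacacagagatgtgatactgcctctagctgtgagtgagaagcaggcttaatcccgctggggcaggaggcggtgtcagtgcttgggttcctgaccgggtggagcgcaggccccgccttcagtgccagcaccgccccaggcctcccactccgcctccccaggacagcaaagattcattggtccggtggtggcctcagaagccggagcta
Ifi205: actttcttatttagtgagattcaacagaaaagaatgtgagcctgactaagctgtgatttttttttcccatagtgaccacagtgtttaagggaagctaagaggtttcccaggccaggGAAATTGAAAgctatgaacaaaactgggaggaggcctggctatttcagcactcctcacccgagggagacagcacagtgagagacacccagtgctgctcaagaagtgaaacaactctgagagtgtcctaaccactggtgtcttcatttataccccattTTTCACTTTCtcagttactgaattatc

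The Ifi205 window held 2 such matches, searched on both strands, the first starting at position -134 from the gene start on the gene's strand and the other at position 23 on the opposite strand. The other 3 windows held no match to this element. None of the 4 windows matched the Ets-IRF composite (GGAA, any 2 bases, GAAA), the AP-1 site TGANTCA, or the composite of GAAA directly before TGANTCA. The first pair of motifs can overlap, and the last contains TGANTCA. Over all 32851 promoter windows 3.44% held the interferon element, 2.72% the Ets-IRF composite, 7.81% TGANTCA and 0.125% the last composite. Of the 203 windows of genes higher in Xcr1 Clec9a cells than in Cd209a cells, 9.36% held the interferon element, as did 8.86% of the 237 windows of genes that were lower. The 3560 windows of tested genes held it in 3.85%. By symbol, windows were found for 2703 of the 3396 tested genes, 154 of the 189 higher and 172 of the 218 lower. For the Ets-IRF composite the shares in windows of higher and lower genes were 2.46 and 3.80%, for TGANTCA 8.37 and 8.44%, and for the last composite 0 and 0%. These matches are a description of the letters in the windows.

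Xcr1 Clec9a cells numbered 1 and 5 in the Ms4a3 cKO libraries, against 100 and 41 in the Flox control libraries. As a share of kept cells this was 0.00654% (95% Wilson interval 0.00115 to 0.0371) in Ms4a3 cKO 1 and 0.0320% (0.0137 to 0.0749) in Ms4a3 cKO 2, against 0.740% (0.609 to 0.899) in Flox control 1 and 0.248% (0.183 to 0.337) in Flox control 2. Both cKO shares lay below both Flox shares, with no overlap of the intervals, which cover counting error only. The log2 ratio was -4.62 (SE 1.08, n = 2 libraries per genotype). It did not pass edgeR's quasi-likelihood test over 11 marker-gated classes of cells (adjusted p = 0.0834, unadjusted p = 0.0152), in which 9.09% of classes were called. The exact two-sided permutation test gave p = 0.33, the smallest that 2 against 2 libraries allow. The ratio passed as a share of cells with a UMI of Ptprc, the leukocyte gene CD45 (-4.12, edgeR adjusted p = 0.0470), and without the H2-Aa requirement (-4.45, adjusted p = 0.0143). H2-Aa itself was seen in 2.71 and 2.16% of the kept cells outside both gates in the cKO libraries, against 21.0 and 17.1% in the Flox controls. The gate needs UMIs, so depth can alter its counts. With every cell thinned to the same number of UMIs the log2 ratio was -4.84 (SE 1.44), which did not pass edgeR's test (adjusted p = 0.110). Cells with exactly 1 UMI of Xcr1 and Clec9a, which the gate leaves out, numbered 0 and 0 in the cKO libraries, against 48 and 23 in the Flox controls. Whether cells were missed because they held less RNA of the gate genes was not tested.

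**Figure D1:**
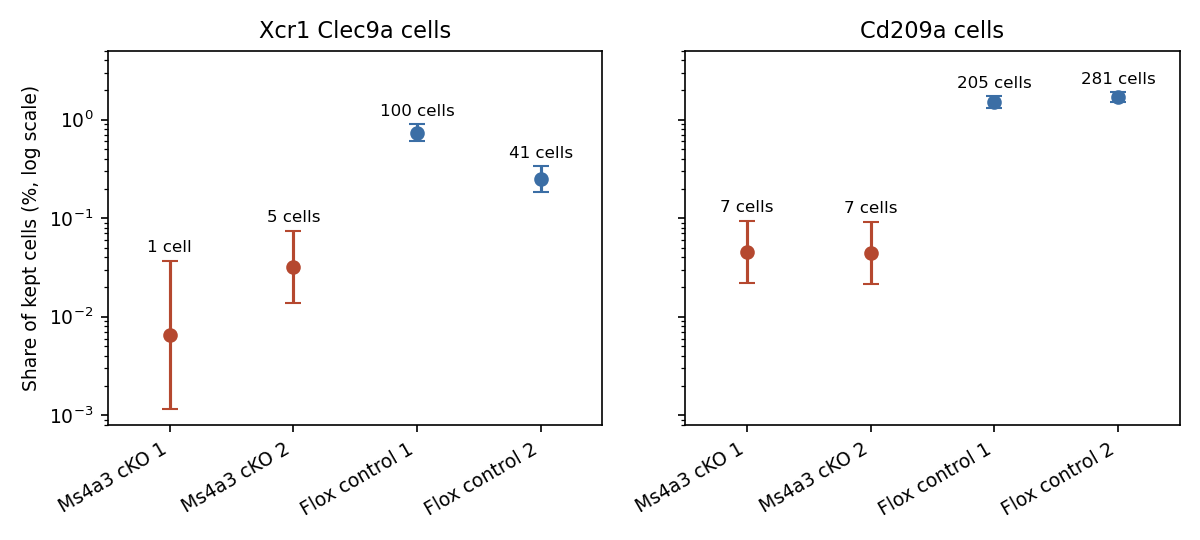
Share of kept cells in the Xcr1 Clec9a gate (left) and the Cd209a gate (right) per library, in percent on a log axis; points are single libraries, bars 95% Wilson intervals, and the number of cells stands above each. The Ms4a3 cKO libraries hold 1 and 5 Xcr1 Clec9a cells, against 100 and 41 in the Flox control libraries.

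Cd209a cells, which carry markers of the type 2 conventional dendritic cell (cDC2), were also fewer. They numbered 7 and 7 in the Ms4a3 cKO libraries, against 205 and 281 in the Flox controls, a fall that passed the same test (log2 ratio -5.13, SE 0.62, edgeR adjusted p = 0.0170) but not with any 1 of the 4 libraries left out (adjusted p = 0.0611 to 0.105), with the replicate block (0.0822) or without the H2-Aa requirement (-4.40, adjusted p = 0.0568). Among both gates together, Xcr1 Clec9a cells made up 12.5% (1 of 8) and 41.7% (5 of 12) in the cKO libraries, against 32.8% (100 of 305) and 12.7% (41 of 322) in the Flox controls. These shares overlapped between genotypes, and the exact permutation p was 1. The Flox controls differed between themselves more in Xcr1 Clec9a cells than in Cd209a cells.

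Depth differed in the same direction as the number of cells. Kept cells numbered 15286 and 15627 in the cKO libraries, against 13515 and 16514 in the Flox controls, with medians of 3808 and 4027 UMIs per cell against 6639 and 5547.5. After each cell was thinned to 2000 UMIs, 0 and 3 Xcr1 Clec9a cells were left in the cKO libraries, against 71 and 25 in the Flox controls (0 and 0.0248%, against 0.579 and 0.193%; a count of 0 allows up to 0.0254%). Counted over all kept cells, Xcr1 had 4 and 10 UMIs in the cKO libraries, against 679 and 125 in the Flox controls, and Clec9a 8 and 17, against 626 and 252. No gated cell shared its barcode with another library, while 13 kept barcodes in all did.

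Ligands that cDC1 respond to were read from the same libraries. Xcl1, the XCR1 ligand, had 1 and 1 UMIs in the Ms4a3 cKO libraries, against 163 and 27 in the Flox controls. T and natural killer cells held 76.1% of these UMIs in Flox control 1 and 22.2% in Flox control 2. Such cells numbered 33 and 60 in the cKO libraries, against 524 and 51 in the Flox controls. Flt3l stood at 6.78 and 6.27 CPM (counts per 1e6 UMIs) in the cKO libraries, against 10.02 and 6.99 CPM in the Flox controls. Flox control 1 was the library with the most Xcr1 Clec9a cells, T and natural killer cells and Xcl1; their part in the shares was not tested.

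Htr2b, the gene to be deleted, had 0 and 0 UMIs in the Xcr1 Clec9a cells of the cKO libraries, against 1 and 0 in those of the Flox controls. In Cd209a cells it had 0 and 0 UMIs in the cKO libraries, against 8 and 25 in the Flox controls. All other kept cells held it at 46.1 and 52.9 CPM, against 54.0 and 85.2 CPM. The platform tags the 3′ end and the labels do not give the floxed exon, so these UMIs check nothing about the deletion. Ms4a3 had 0 UMIs in Xcr1 Clec9a cells of every library.

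Markers in the gated cells are given as a description. The rule did not use Naaa and Ifi205, but both are named with the population, so they are no check of the label. Of 147 gated cells, 102 held UMIs of both Xcr1 and Clec9a, 38 of Clec9a alone and 7 of Xcr1 alone, with a median of 6 and at most 63 UMIs of both together. Naaa was seen in 121 of them, Ifi205 in 113, and at least 1 of the pair in 128. A UMI of Cd209a was seen in 12 gated cells, 8 of Flox control 1 and 4 of Flox control 2. Of these 12 cells 11 had no Xcr1 UMI, and 6 had neither Naaa nor Ifi205. Of Flox control 1's 100 cells 88 held Naaa and 77 Ifi205, and of Flox control 2's 41 cells 29 and 30 did. In Flox control 1 and 2, Naaa was seen in 41.0 and 29.9% of Cd209a cells and in 18.8 and 14.4% of all other kept cells. Ifi205 was seen in 12.7 and 1.78% of Cd209a cells and in 2.13 and 1.03% of all other kept cells. The gate took in 94.0 and 87.2% of all Xcr1 UMIs of Flox control 1 and 2, and 87.2 and 70.2% of all Clec9a UMIs. It took in 22.9 and 6.10% of their Naaa UMIs and 45.9 and 27.2% of their Ifi205 UMIs, so neither of these genes is confined to it. In Ms4a3 cKO 1 and 2 the gate took in 0 and 50% of 4 and 10 Xcr1 UMIs. For Clec9a it was 25 and 64.7% of 8 and 17 UMIs. Xcr1 stood at 0, 161, 967 and 515 CPM in the gated cells of Ms4a3 cKO 1 and 2 and Flox control 1 and 2, and Clec9a at 347, 354, 827 and 837 CPM. In kept cells outside both gates Xcr1 was at most 0.399 CPM and Clec9a at most 0.779 CPM. The rule used both genes, so these levels are a description.

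The values on either side of the threshold were as follows. With exactly 2 UMIs there were 1 and 2 cells in the cKO libraries, against 18 and 12 in the Flox controls, and with exactly 1 UMI 0 and 0, against 48 and 23. In Flox control 1 and 2, Naaa stood at 549 and 438 CPM in cells with 2 UMIs, at 628 and 126 CPM with 1 UMI, and at 61.2 and 47.3 CPM in H2-Aa cells with 0. Ifi205 stood at 417 and 589.8, at 505 and 101, and at 22.7 and 10.8 CPM. The order of cells with 1 and 2 UMIs thus differed between the libraries. As a background, 6 of 4288 microglia with at least 2 UMIs of Sall1 (0.140%, median 6659 UMIs) and 2 of 2857 (0.0700%, 6997 UMIs) of these libraries held at least 2 UMIs of Xcr1 and Clec9a, while 0 of 2226 and 0 of 3113 did in Ms4a3 cKO 1 and 2, which allows up to 0.135 and 0.0964%. In T cells with at least 2 UMIs of Cd3e it was 2 of 333 (0.601%) in Flox control 1.

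Gene levels are CPM of UMIs summed per library and gate. The gated cells had medians of 5762, 5297, 6273 and 4483 UMIs in Ms4a3 cKO 1 and 2 and Flox control 1 and 2, and the Cd209a cells 3073, 3989, 5056 and 4074 UMIs. In the cKO libraries 1 UMI is worth 174 CPM and 32.1 CPM in Xcr1 Clec9a cells. A test of the genotype within Xcr1 Clec9a cells was not made, because it had been set to need 10 cells in every library. Across the 4 libraries, with library as a block, 407 of 3396 genes (12%) differed from Cd209a cells by edgeR's quasi-likelihood test, 189 higher (5.57%) and 218 lower (6.42%). In the Flox control libraries alone, 666 of 7618 genes did (8.74%; 3.98% higher and 4.77% lower). Of the 407 genes 405 were tested there, 405 with the same sign, and 374 were called. Without Flox control 1 the count was 41 and without Flox control 2 it was 24, of 724 and 728 genes tested. DESeq2 called 226 of the 3396. Each list count below stands against the 5.57% higher and 6.42% lower over all genes tested across the 4 libraries. Of the genes described below, Irf8, Septin3, Cd24a, Ppt1, Cd33, Tnfsf9, Itgam, Fn1, Cybb, Il1b, Ccr1, Ctss and Nfkbia passed without either Flox library, and every other call described with a test was lost or not tested without at least 1 of them. DESeq2 did not pass Id2, Cadm1, Gcsam, Cxcl9, Mgl2, H2-Eb1, Samsn1, Tap1, Psme1, Cd36, Havcr2, Tnf, Cxcl16, Ifnar1, Tgfbr2, Ccr2, Cx3cr1, S1pr1, Ifi44, Fkbp5, Jun, Ly6c2, Arg1, Mrc1, F13a1, Htr7 or the cell cycle genes.

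Of the 22 genes of the cDC1 list 21 are in the deposited data, among them the gate genes Xcr1 and Clec9a, which were left out of calls. Of the rest 14 passed the filter on low counts. All 14 were higher in Xcr1 Clec9a cells than in Cd209a cells, where 5.57% of all genes tested were. Nothing is read from that count, since the 14 include Naaa and Ifi205, which are named with the population, and Gcsam, which passed the filter through the Xcr1 Clec9a cells alone. Their median log2 fold change was 2.96, also with Gcsam at the bound given below, against -0.0003 over all genes. The list was drawn up for this cell type with results of these data known, and is given as a description. Ifi205 stood at 347, 579, 1024 and 609.8 CPM in Xcr1 Clec9a cells of Ms4a3 cKO 1 and 2 and Flox control 1 and 2, against 0, 0, 67.8 and 11.8 CPM in Cd209a cells. Naaa stood at 174, 771, 1946 and 1039.9 CPM, against 142, 0, 151 and 102 CPM. No p-value is given for either gene, since both are named with the population; the values in Xcr1 Clec9a cells lay above those in Cd209a cells of the same library in all 4. Of the list's other members, Snx22, a sorting nexin, had 8 and 7 UMIs in the Flox control 1 and 2 cells, against 0 and 1 in Cd209a cells, and Plpp1, a lipid phosphatase, had 26 and 2, against 0 and 5; neither could be tested.

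Irf8, the transcription factor on which cDC1 depend, led the regulators. It stood at 1736, 482, 1243 and 695 CPM in Xcr1 Clec9a cells of Ms4a3 cKO 1 and 2 and Flox control 1 and 2, against 71.0, 35.5, 49.7 and 76.5 CPM in Cd209a cells (log2 fold change 3.91, SE 0.34, edgeR adjusted p = 1.19e-12). The ranges of the gates did not overlap. Id2, an inhibitor of basic helix-loop-helix factors needed by cDC1, stood at 2950.4, 4211, 2655 and 2926 CPM, against 2024, 816, 1124 and 775 CPM (1.41, SE 0.28, adjusted p = 0.000221), again without overlap. Zeb2, which opposes the cDC1 fate in mouse, was lower, at 0, 289, 103 and 227 CPM, against 533, 568, 352 and 628 CPM (-1.59, SE 0.30, adjusted p = 8.38e-05). Of 16 transcription factors tested, 2 were higher (5.57% over all genes tested) and 1 lower (6.42%), with a median of 0.13. Those that did not pass include Zbtb46, a factor of all conventional dendritic cells (0.31, SE 0.34, adjusted p = 0.754), Cbfa2t3, which acts upstream of Irf8 (0.22, SE 0.31, adjusted p = 0.813), Bcl6 (0.58), Nfil3 (0.02) and Spi1, which encodes PU.1 (-0.53). Batf3 was too low to test, with 14 and 7 UMIs in the Xcr1 Clec9a cells of Flox control 1 and 2 (21.2 and 33.1 CPM), against 7 and 3 UMIs in Cd209a cells (6.33 and 2.37 CPM).

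Antigen handling was the next function. Wdfy4, needed for cross-presentation by mouse cDC1, stood at 347, 1414, 981 and 1224 CPM in Xcr1 Clec9a cells of Ms4a3 cKO 1 and 2 and Flox control 1 and 2, against 213, 35.5, 299 and 268 CPM in Cd209a cells (2.11, SE 0.32, edgeR adjusted p = 1.91e-06). Of 16 genes of cross-presentation and MHC class I tested, 3 were higher and 1 lower, with a median of -0.17. Beside Wdfy4 the higher ones were Tap1, a subunit of the peptide transporter (1.04, SE 0.33, adjusted p = 0.0289), and Psme1, a proteasome activator (1.01, SE 0.29, adjusted p = 0.0130). The lower one was Cybb, the catalytic subunit of the phagocyte NADPH oxidase, at 174, 129, 429 and 336 CPM, against 1740.1, 1065, 1439 and 1039 CPM (-2.01, SE 0.31, adjusted p = 1.99e-06). The heavy and light chain genes H2-K1 (-0.22), H2-D1 (-0.21) and B2m (-0.17) did not pass. Of 7 MHC class II genes H2-Eb1 alone was called, lower (-0.82, SE 0.25, adjusted p = 0.0213), which was lost in the Flox libraries alone (-0.33, adjusted p = 0.347). Cd74 (-0.53), H2-Ab1 (-0.45) and the class II transactivator Ciita (0.12) did not pass, and the list's median was -0.40.

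Receptors for nucleic acids and dead cells held calls in both directions. Tlr3, the endosomal receptor for double-stranded RNA, stood at 0, 289, 567 and 274 CPM in Xcr1 Clec9a cells of Ms4a3 cKO 1 and 2 and Flox control 1 and 2, against 0, 71.0, 42.5 and 15.8 CPM in Cd209a cells (3.81, SE 0.36, edgeR adjusted p = 1.88e-11). A Tlr3 UMI was seen in 77.0 and 53.7% of the Flox cells, against 16.6 and 6.05% of Cd209a cells, and after thinning in 56.0 and 31.7%, against 8.59 and 2.26%. Tlr2, the receptor for bacterial lipopeptides, was lower (-1.95, SE 0.36, adjusted p = 6.63e-05). These were the called genes among 6 tested for sensing, with Unc93b1, Myd88, Irf5 and Sting1 between -0.28 and 0.70, and the list's median was 0.09. Tlr11, a receptor for profilin, was untested, with 50 and 9 UMIs in the Flox control 1 and 2 cells, against 5 and 0 in Cd209a cells. In the list of dead cell uptake, with a median of -0.06, Cd36, a scavenger receptor, was higher (1.36, SE 0.34, adjusted p = 0.00384). So was Havcr2, which encodes the phosphatidylserine receptor TIM-3 (1.18, SE 0.33, adjusted p = 0.00930; adjusted p = 0.0537 in the Flox libraries alone). Cd300a, an inhibitory receptor for the same lipid, was lower (-1.92, SE 0.34, adjusted p = 3.54e-05), and the remaining 4 of the 7 tested, Mertk, Itgav, Syk and Lrp1, did not pass.

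Other genes of the cDC1 list followed. Gcsam, a signalling adaptor known from germinal centre B cells, had 0, 6, 115 and 36 UMIs in Xcr1 Clec9a cells of Ms4a3 cKO 1 and 2 and Flox control 1 and 2, and 0 UMIs in the Cd209a cells of every library. Against a floor of 3 UMIs over the 4 libraries it was at least 140.1-fold higher. Itgae, the CD103 integrin chain, stood at 0, 161, 317 and 544 CPM, against 0, 0, 114 and 67.8 CPM (2.26, SE 0.34, edgeR adjusted p = 1.74e-06). The remaining tested list members were Cd24a (2.93, SE 0.34), a glycoprotein of the cDC1 surface, Rab7b (2.99, SE 0.34), a late endosomal GTPase, and Ppt1 (2.56, SE 0.32), a lysosomal thioesterase. Septin3 (4.18, SE 0.39), a cytoskeletal GTPase, Cadm1 (1.11, SE 0.33), an adhesion molecule that binds CRTAM on lymphocytes, and Cxcl9 completed them. Each of these passed edgeR's test, with adjusted p between 7.71e-12 and 0.0163. The test is against Cd209a cells only. In all other kept cells Cadm1 stood at 315, 398, 307 and 311 CPM in the same order of libraries, against 0, 32.1, 330 and 194 CPM in Xcr1 Clec9a cells. Rab7b stood at 113, 94.0, 204 and 160 CPM in those other cells and Ppt1 at 231, 243, 359 and 226 CPM, below the Xcr1 Clec9a cells of the same library. Genes of the 10 with the largest rise that no list holds included P2ry14, a receptor for UDP-sugars (3.86, SE 0.41), and Txndc15, a thioredoxin-domain protein (2.16, SE 0.32).

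**Figure D2:**
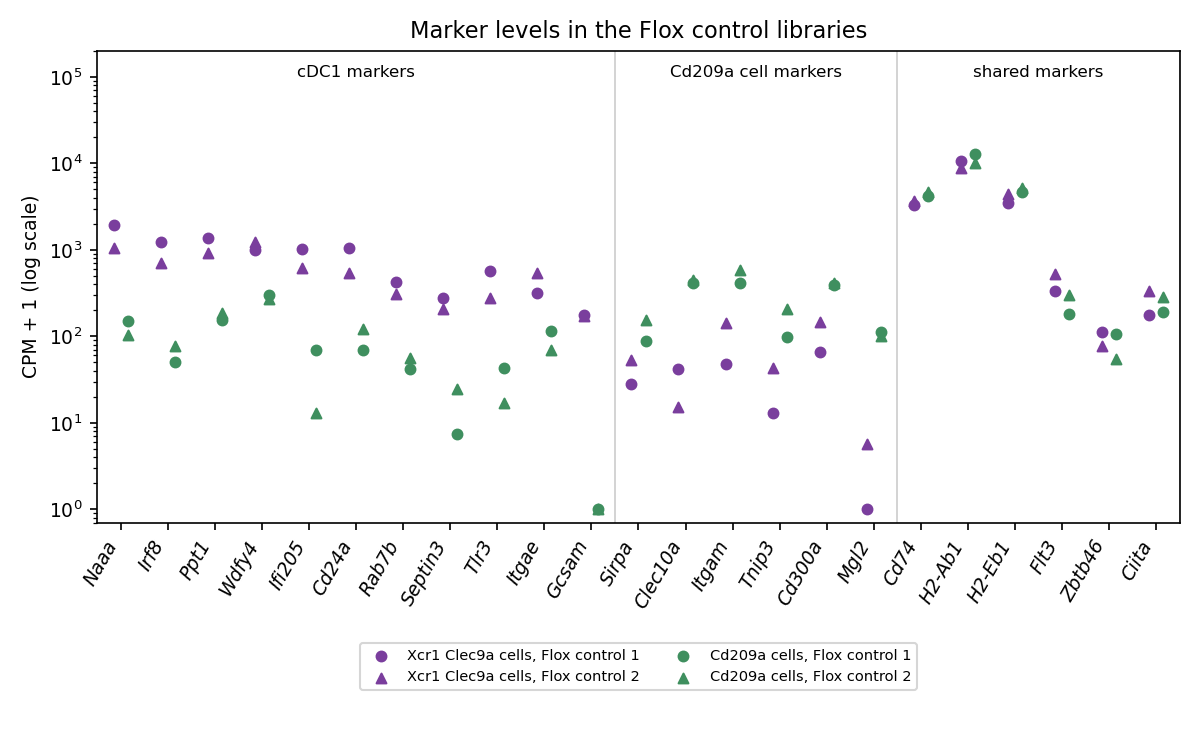
Levels of marker genes in Xcr1 Clec9a cells (purple, left of each pair) and Cd209a cells (green) of Flox control 1 (circles) and Flox control 2 (triangles), as CPM + 1 on a log axis. The cDC1 markers are higher in Xcr1 Clec9a cells of both libraries, Irf8 for example at 1243 and 695 CPM against 49.7 and 76.5 CPM, while Cd74 and H2-Ab1 lie close together.

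Genes of the Cd209a cells were lower. In the cDC2 list 6 of 7 tested members were lower, against a background of 6.42%, with a median of -2.45. They were Clec10a and Mgl2, lectins for galactose-type sugars, Sirpa, the receptor for CD47, Itgam, the CD11b integrin chain, Tnip3, an inhibitor of NF-kB, and Cd300a. Clec10a stood at 0, 0, 40.9 and 14.2 CPM in Xcr1 Clec9a cells of Ms4a3 cKO 1 and 2 and Flox control 1 and 2, against 213, 319, 413 and 450.2 CPM in Cd209a cells (-3.79, SE 0.40, edgeR adjusted p = 2.29e-10). Klf4, a factor needed by part of the cDC2, did not pass (-0.57, SE 0.29, adjusted p = 0.246). The cells that define this comparison were chosen by Cd209a, so a difference from them is not a difference from all other dendritic cells. Nothing is read from the count in the cDC2 list, which was drawn up with results of these data known. Its member Mgl2 passed the filter on low counts through the Cd209a cells. It had 0, 0, 0 and 1 UMIs in Xcr1 Clec9a cells, against 123 and 126 in Cd209a cells of Flox control 1 and 2. Of the 10 genes with the largest fall that met the naming rule, Clec4n, Trem1, Cd33 (-3.63, SE 0.35) and Clec10a encode innate receptors. Tmem176a (-4.35, SE 0.61) and Tmem176b (-3.48, SE 0.44) encode paired endosomal channels, and Cdh1 (-3.63, SE 0.43) encodes E-cadherin. Selp, the adhesion molecule P-selectin, and Tnfsf9, the ligand 4-1BBL (-3.41, SE 0.43), were also among them. Clec4n had 1 UMI over the Xcr1 Clec9a cells of all libraries, against 169 over the Cd209a cells, a ratio of CPM of 0.0158 (95% interval 0.000399 to 0.0895). Selp had 1 UMI against 99, a ratio of 0.027 (95% interval 0.000678 to 0.154), and Trem1 had 2 against 94, a ratio of 0.057 (95% interval 0.0068 to 0.212). These exact intervals cover counting error only.

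**Figure D3:**
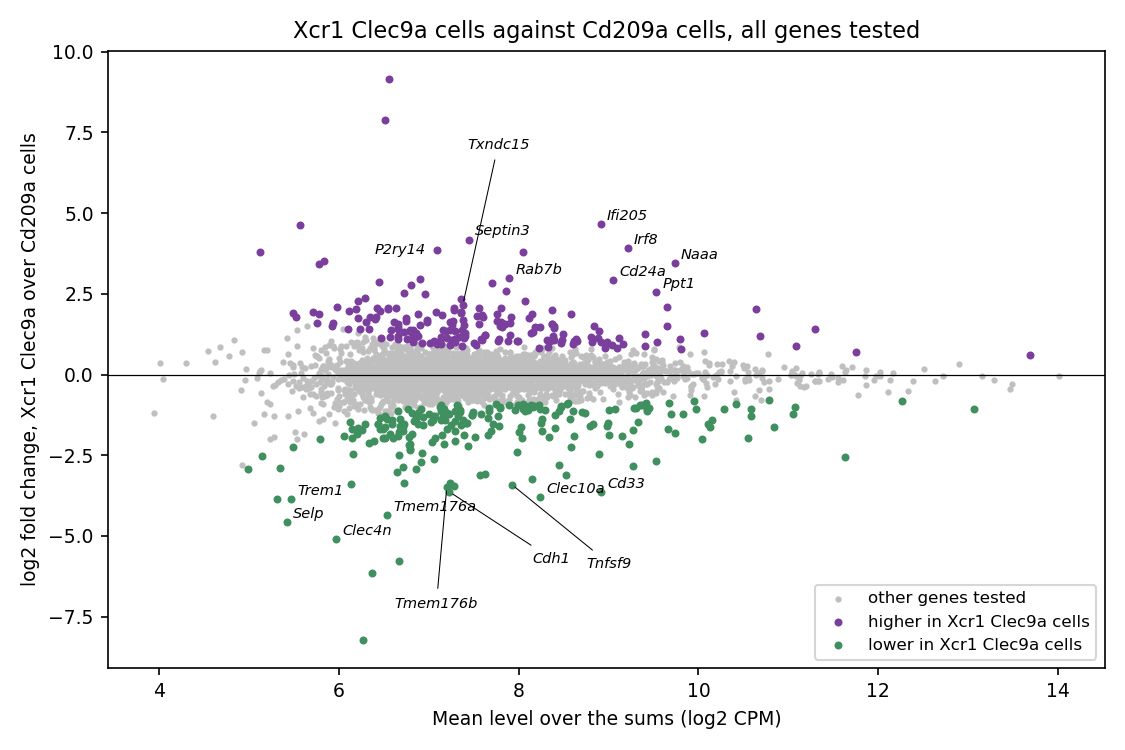
Log2 fold change of Xcr1 Clec9a cells over Cd209a cells against the mean level (log2 CPM) for all 3396 genes tested; purple points are the 189 genes higher and green points the 218 genes lower by edgeR at an adjusted p under 0.05, and genes named by rule are labelled. Irf8 lies at 3.91 and Cd33 at -3.63; fitted values of genes with 0 to 3 UMIs in a gate depend on the prior count.

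Of 10 shared dendritic cell markers, Itgax, the CD11c chain (-1.21, SE 0.30, edgeR adjusted p = 0.00315), and H2-Eb1 were lower, with a median of -0.03. Flt3, the receptor for Flt3l, stood at 174, 321, 330.4 and 520.0 CPM in Xcr1 Clec9a cells of Ms4a3 cKO 1 and 2 and Flox control 1 and 2, against 319.6, 568, 179 and 297 CPM in Cd209a cells. It did not pass across the 4 libraries (0.53, SE 0.29, adjusted p = 0.324) and was higher in the Flox libraries alone (0.84, adjusted p = 0.0117). All other kept cells held Flt3 at 4.60, 2.76, 2.80 and 5.07 CPM. Of the 14 receptors for growth factors and cytokines tested, with a median of -0.41, Ifnar1 was higher (0.96, SE 0.31, adjusted p = 0.0325). Csf1r, the receptor for macrophage growth factors (-1.55, SE 0.33, adjusted p = 0.000491), and the TGF-beta receptors Tgfbr1 (-1.24, SE 0.31, adjusted p = 0.00343) and Tgfbr2 (-0.98, SE 0.31, adjusted p = 0.0257) were lower.

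Chemokine receptors and adhesion genes held the most lower calls of any function list, 7 of 13 tested (6.42% over all genes tested), with 2 higher (5.57%) and a median of -1.13. Ccr1 stood at 0, 96.4, 21.2 and 52.0 CPM in Xcr1 Clec9a cells of Ms4a3 cKO 1 and 2 and Flox control 1 and 2, against 817, 461, 290.1 and 335 CPM in Cd209a cells (-3.22, SE 0.38, edgeR adjusted p = 4.61e-09). Others lower were Cx3cr1 (-1.13), Itgax, Itgam (-2.45), S1pr1 (-2.23) and Ccr2 (-1.21), and those higher were Itgae and Cadm1. Ccr2, the receptor that takes monocytes into inflamed tissue, did not hold in the Flox libraries alone (-0.09, adjusted p = 0.871), where its levels were 1431 and 1234 CPM, against 1171 and 1722 CPM. S1pr1, a lymphocyte egress receptor, had 0 and 0 CPM in the Flox cells, against 12.7 and 57.6 CPM, and lost its call with doublets removed.

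Of 10 cytokine and chemokine genes tested, 4 were lower (6.42% over all genes tested) and 1 higher (5.57%), with a median of -0.46. Il1b stood at 174, 579, 452 and 1352 CPM in Xcr1 Clec9a cells of Ms4a3 cKO 1 and 2 and Flox control 1 and 2, against 4155, 7311, 1699 and 4887 CPM in Cd209a cells (-2.57, SE 0.30, edgeR adjusted p = 4.23e-09). Tnf (-2.32, SE 0.44), Ccl9 (-3.34, SE 0.42) and Cxcl16 (-1.05, SE 0.33) were also lower. Cxcl9, which attracts CXCR3-bearing T cells, was higher (2.06, SE 0.41, adjusted p = 0.000205), and Flox control 1 carried it, with 249 UMIs in 19 of 100 cells, against 110 UMIs in 3 of 205 Cd209a cells. In Flox control 2 it had 2 UMIs, against 0. Il12b, a subunit of the cytokine interleukin 12, had 0 and 5 UMIs in the Flox cells, the 5 in 1 cell, and was not tested. Among 7 co-stimulation and checkpoint genes, with a median of 0.25, Havcr2 and the inhibitory receptor Btla (1.86, SE 0.30, adjusted p = 7.80e-06) were higher and Cd80 (-1.64, SE 0.42, adjusted p = 0.00417) and Tnfsf9 lower, while Cd86 did not pass (0.25, SE 0.32, adjusted p = 0.792).

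The list of mature dendritic cells, which move from tissue to lymph nodes, was mostly at or near 0. The gate needs 2 UMIs of Xcr1 and Clec9a, so a mature cell with fewer of them is not in it. Of 18 genes 4 could be tested, of which Samsn1 (-1.01) and Marcksl1 (-1.70) were lower, Cd83 (0.63) and Relb (0.04) did not pass, and the median was -0.49. In the Flox libraries alone 7 could be tested, with 2 higher (3.98% over all genes tested there) and 2 lower (4.77%). There Cd83 was higher (0.73, edgeR adjusted p = 0.0230), at 527 and 931 CPM, against 355 and 492 CPM in Cd209a cells. Ccr7, the receptor for lymph node homing, had 0 and 3 UMIs in the Xcr1 Clec9a cells of Flox control 1 and 2, against 0 and 5 in Cd209a cells. Kept cells outside both gates held 150 and 209 Ccr7 UMIs in these libraries, in 38 and 63 cells. In the Xcr1 Clec9a cells Ccl22 had 0 and 0 UMIs, against 1 and 1 in Cd209a cells, and Fscn1 1 and 1, against 4 and 6. The summed level of the list was 868, 1029, 709 and 1338 CPM, against 1172, 674, 763 and 1026 CPM, so the ranges overlapped.

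Interferon-stimulated genes were higher in 3 of 11 tested (5.57% over all genes tested) and lower in 0 (6.42%), with a median of 0.29. They included Ifi44 (1.97, SE 0.45, edgeR adjusted p = 0.00108) and Stat2, a subunit of the type I interferon-activated factor ISGF3 (1.56, SE 0.31, adjusted p = 0.000185). Stat2 stood at 0, 96.4, 256 and 241 CPM in Xcr1 Clec9a cells of Ms4a3 cKO 1 and 2 and Flox control 1 and 2, against 35.5, 35.5, 101 and 66.2 CPM in Cd209a cells. Of 12 lysosomal genes, with a median of -0.39, Ppt1 and Cst3, the protease inhibitor cystatin C (1.20, SE 0.28, adjusted p = 0.00193), were higher. Ctss, the protease that trims the MHC class II invariant chain (-1.08, SE 0.21, adjusted p = 0.000116), and Lamp2 (-1.13, SE 0.28, adjusted p = 0.00269) were lower. The serotonin receptor gene Htr7 was the member of its list that could be tested. It was higher (1.15, SE 0.33, adjusted p = 0.0127), at 0, 386, 108 and 161 CPM, against 249, 177, 28.0 and 95.4 CPM, but did not pass after thinning (adjusted p = 0.101).

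**Figure D4:**
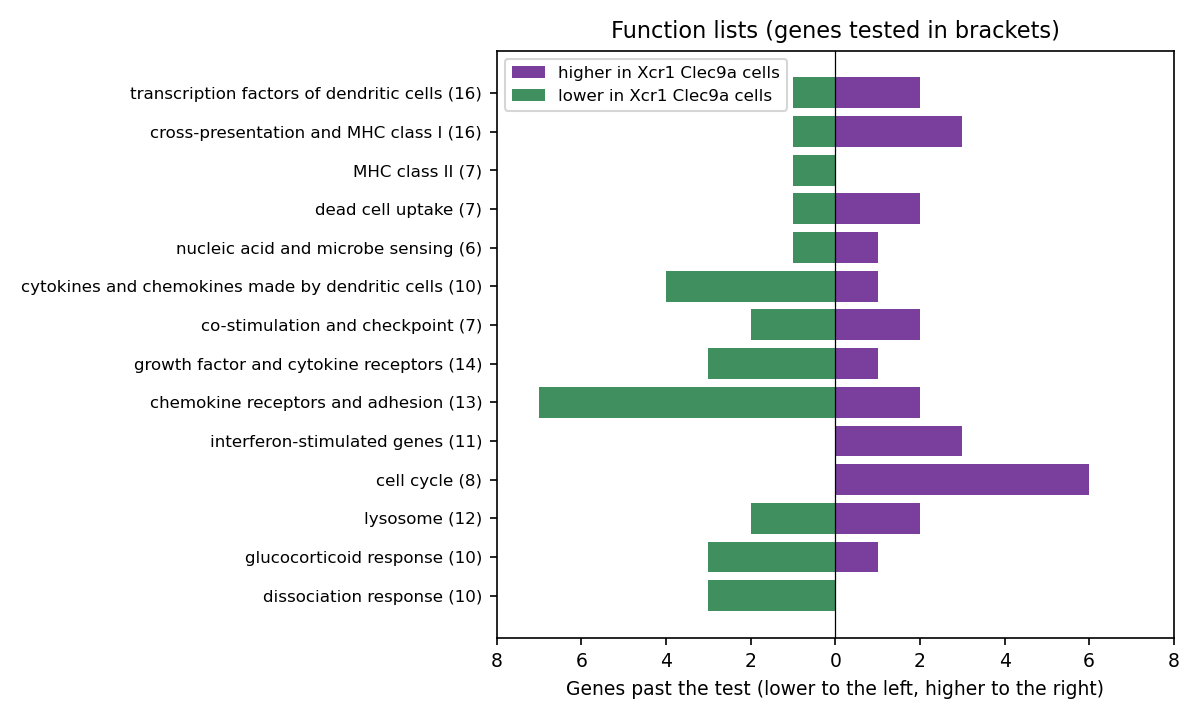
Number of genes higher (purple, to the right) and lower (green, to the left) in Xcr1 Clec9a cells than in Cd209a cells in each function list with at least 5 genes tested, by edgeR at an adjusted p under 0.05; the number tested stands in brackets. The cell cycle list has 6 of 8 genes higher, and chemokine receptors and adhesion 7 of 13 lower. Over all genes tested 5.57% were higher and 6.42% lower.

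Cell cycle genes were higher in 6 of 8 tested (5.57% over all genes tested) and lower in 0 (6.42%), with a median of 1.35. Mki67, a marker of cycling cells, stood at 0, 129, 509 and 312 CPM in Xcr1 Clec9a cells of Ms4a3 cKO 1 and 2 and Flox control 1 and 2, against 35.5, 0, 314 and 50.5 CPM in Cd209a cells (1.56, SE 0.35, edgeR adjusted p = 0.000928). Top2a (1.47), Cdk1 (2.36), Birc5 (1.61), Stmn1 (1.24) and Tubb5 (0.92) were higher too, and Pcna, a replication clamp, did not pass (0.01, SE 0.31). DESeq2 passed 0 of these 6 genes, and Mki67 and Tubb5 did not pass after thinning. A UMI of Mki67 or Top2a was seen in 40 of 100 (40%) and 9 of 41 (22%) Xcr1 Clec9a cells of Flox control 1 and 2, against 24.9 and 18.5% of Cd209a cells. After thinning to 2000 UMIs, which left out 7 and 15 Cd209a cells, the shares were 25% and 12.2%, against 17.7 and 9.40%, with overlapping exact intervals. After thinning, the share in Xcr1 Clec9a cells lay above that in Cd209a cells in both libraries, and each gate differed more between the libraries than the gates did within one.

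**Figure D5:**
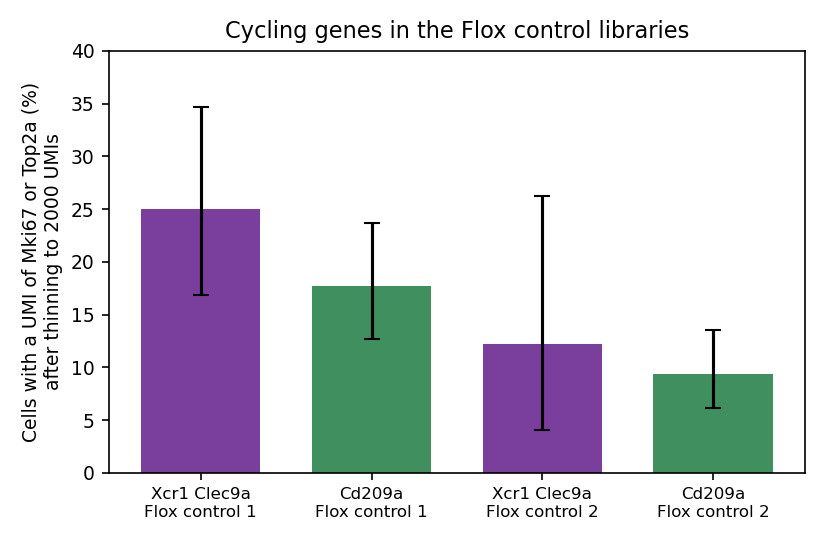
Share of cells with a UMI of Mki67 or Top2a after thinning each cell to 2000 UMIs, in percent, for Xcr1 Clec9a cells (purple) and Cd209a cells (green) of the Flox control libraries; bars are shares and lines exact 95% binomial intervals. Flox control 1 has 25% against 17.7% and Flox control 2 has 12.2% against 9.40%.

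Stress lists were compared because dissociation and handling move them. Of 10 dissociation genes, with a median of -0.60, Egr1 (-1.40, SE 0.29, edgeR adjusted p = 0.000386), Atf3 (-1.04, SE 0.29, adjusted p = 0.00992) and Jun (-0.96, SE 0.31, adjusted p = 0.0334) were lower. Of 10 glucocorticoid response genes, with a median of 0.06, Nfkbia (-1.97, SE 0.28), Klf9 (-1.98, SE 0.48) and Cebpd (-1.95, SE 0.39) were lower, with adjusted p between 5.10e-07 and 0.00246. Fkbp5, which holds the glucocorticoid receptor in its low-affinity state, was higher (0.82, SE 0.28, adjusted p = 0.0477) and lost that call in the Flox libraries alone (0.58, adjusted p = 0.148). Its levels in Xcr1 Clec9a cells were 1562 and 1286 CPM in the cKO libraries, from 9 UMIs in 1 cell and 40 in 5 cells, against 115 and 203 CPM in the Flox controls. In Cd209a cells they were 604 and 355, against 77.7 and 132 CPM.

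Markers of other cell types were read in the gated cells. In the Xcr1 Clec9a cells of Ms4a3 cKO 1 and 2 and Flox control 1 and 2, the T and natural killer cell list summed to 0 CPM in each. Neutrophil markers summed to 0, 225, 15.2 and 37.8 CPM, B cell markers to 0, 96.4, 217 and 165 CPM, endothelial to 0, 32.1, 16.7 and 66.2 CPM, astrocyte to 0, 32.1, 27.3 and 14.2 CPM, and oligodendrocyte to 0, 450.0, 167 and 194 CPM. The B cell sum came mostly from Ighm, at 209 and 161 CPM in the Flox cells, and did not pass against Cd209a cells (0.65, SE 0.32, adjusted p = 0.231); of the neutrophil list Mmp8 was the gene tested and did not pass either (-1.27, SE 0.71, adjusted p = 0.324). Of 2 oligodendrocyte genes tested 1 was lower, with a median of -0.93. The endothelial, astrocyte and T and natural killer lists had 0 genes that could be tested. Their part in the results was not tested.

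Myeloid lists were nearer to the dendritic cells. Monocyte-macrophage markers summed to 1562, 15011, 6480.1 and 8925 CPM in Xcr1 Clec9a cells of Ms4a3 cKO 1 and 2 and Flox control 1 and 2, against 12820, 6956, 7000.3 and 8278 CPM in Cd209a cells. A single gated cell of Ms4a3 cKO 2 held 264 of that library's 268 Lyz2 UMIs in the gate. The same cell held 52 of 53 Thbs1, 31 of 32 Gpnmb and 6 of 6 Arg1 UMIs. Of 9 tested, with a median of -0.27, Plac8 (2.02, SE 0.32, edgeR adjusted p = 4.58e-06), Ly6c2 (1.49, SE 0.33, adjusted p = 0.000846) and Arg1 were higher and Fn1 (-2.79, SE 0.37, adjusted p = 8.46e-08) and Ccr2 lower. Arg1 rested on 3 cells, with 6 UMIs in 1 cell of Ms4a3 cKO 2 and 34 UMIs in 2 cells of Flox control 2, and 0 UMIs in the gated cells of the other libraries. Plac8, a gene of myeloid precursors as well as monocytes, stood at 1215, 2346, 1987 and 2519 CPM, against 319.6, 71.0, 755 and 654 CPM, without overlap. Of 4 microglial markers tested, with a median of -0.76, 1 was lower and Siglech was higher (1.46, SE 0.31, adjusted p = 0.000491). Siglech is also a plasmacytoid dendritic cell marker, as is Ccr9, which was higher (2.88, SE 0.43, adjusted p = 1.32e-06); these were 2 of 4 tested, with a median of 0.57. Siglech turned to -0.59 where both Xcr1 and Clec9a were required. The border macrophage genes Mrc1 (-1.49) and F13a1 (-1.32) were lower.

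The 6 cells of the cKO libraries were looked at one by one. The cell of Ms4a3 cKO 1 held 5762 UMIs, with 2 of Clec9a, 0 of Xcr1, 1 of Naaa, 2 of Ifi205, 10 of Irf8 and 60 of H2-Aa. In Ms4a3 cKO 2 each of the 5 cells held Ifi205, with 3, 1, 2, 10 and 2 UMIs, and Wdfy4, with 6, 2, 7, 12 and 17 UMIs. The first of them, at 11643 UMIs the deepest, also held 215 UMIs of Selenop, 264 of Lyz2, 52 of Thbs1, 31 of Gpnmb and 19 of Mrc1, genes of macrophages. The other 4 cells held 0 of Selenop and Mrc1, at most 1 of Gpnmb and Thbs1, and at most 4 of Lyz2. That cell was not called a doublet by Scrublet, which marked 1 of the 147 gated cells.

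A difference between gates in the genotype effect was tested on the same sums. It was called for 15 of 3396 genes (0.442%), 9 higher (0.265%) and 6 lower (0.177%) in Xcr1 Clec9a cells, and each rests on 1 and 5 cells of the cKO libraries, against 100 and 41 cells of the Flox controls. Without either Flox library the count was 0, with 10 and 18 genes at an unadjusted p under 0.05, and DESeq2 called 1. Ccr2 stood at 0 and 546 CPM in Xcr1 Clec9a cells of the cKO libraries, against 1431 and 1234 CPM in those of the Flox controls. In Cd209a cells it stood at 4261 and 3336 CPM, against 1171 and 1722 CPM, a difference of effects of -3.24 (SE 0.54, edgeR adjusted p = 2.17e-06). Those Cd209a cells numbered 7 and 7, so each of these levels rests on few cells.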

How the data were processed

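Single-cell RNA was measured in 4 libraries. What the authors deposited are unnormalised UMI counts for each gene in each barcode. Tools named are fastp 0.24.0 and STARsolo with mm10, per the submitters' processing notes; the version of STARsolo, its annotation and any barcode filter were not given in the sources used here. Groups came from sample titles. Library totals were 77580518, 84397197, 105566650 and 105545311 UMIs (Ms4a3 cKO 1 and 2, Flox control 1 and 2).

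Kept cells (60942 of 63181 barcodes) had 500 or more UMIs, 250 or more genes and less than 20% mitochondrial UMIs. Counts were summed per library and gate and tested with edgeR 4.0.16 in R 4.3.3 (TMM, filterByExpr, quasi-likelihood, library as block, Benjamini-Hochberg over all genes tested, threshold 0.05), leaving the gate genes out of calls. DESeq2 1.42.0 was the other tool. On counts simulated for the gate comparison over 3400 genes, 48% of 100 genes with a 2-fold change and 87% of 100 with a 4-fold change were called, beside 4 false calls. Shares were tested with edgeR on numbers of cells in 11 classes gated on markers. Doublets were called per library with Scrublet (scanpy 1.11.5, expected rate 6%; 2.50, 2.10, 2.22 and 1.50% called) and kept in the main values. Gene spans are GENCODE's for GRCm38, which 31107 of 31253 gene IDs matched.

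Members and the 29 gene lists were chosen with earlier results of these data known. The named genes are the population's markers, Htr2b and Ms4a3, the list members, and the 10 largest log2 fold changes in each direction among genes past the threshold with at least 50 CPM on average and the same sign in all 4 libraries, which 74 and 156 genes met; for the difference between gates up to 4 in each direction. Some genes that the rule names or the lists hold are not reported here. Sex-linked, Gm, Rik and mitochondrial genes were left out of these. Wilson and exact intervals, at 95%, cover counting error only. Alternatives are in the closing section.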

Additional observations from a re-analysis of the deposited data

Results flagged for a closer look

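The following genes had a genotype effect that differed between Xcr1 Clec9a and Cd209a cells by edgeR's test of the difference itself. Higher in Xcr1 Clec9a cells were Mrc1 (12.28 on the log2 scale), Gpnmb (11.54) and Thbs1 (5.02). Mrc1 and Gpnmb were at 0 in the Cd209a cells of both cKO libraries, so their fitted values depend on the prior count and are no bound. In Ms4a3 cKO 2 a single cell held 19 of the 19 Mrc1 UMIs, 31 of 32 Gpnmb and 52 of 53 Thbs1; it was 1 of 5 gated cells.

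Lower in Xcr1 Clec9a cells were Cxcl2 (-10.94), Zfhx3 (-10.52), Cd14 (-4.10) and Ccr2 (-3.24). Cxcl2 and Zfhx3 were at 0 in the Xcr1 Clec9a cells of both cKO libraries, with the same limit. Cd14 stood at 0 and 64.3 CPM there, against 62.1 and 18.9 CPM in the Flox controls, and in Cd209a cells at 1065 and 1881 CPM, against 73.2 and 159 CPM. In the cKO libraries the gates held 1 to 7 cells, and an effect of genotype and the chance of drawing single cells cannot be told apart.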

How the results depend on the processing

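Gate comparison, 407 genes called: DESeq2 gave 226, thinning to 2000 UMIs 194, no library block 63, the Flox libraries alone 666 and with DESeq2 239 (both chosen after seeing the data). Leaving out 1 library gave 24 to 615. Of 1256 values of 89 followed genes 1017 kept direction and side of the threshold, 237 no longer passed and 2 reversed: Siglech (-0.59) and Cd14 (0.18), both with Xcr1 and Clec9a each required. The cause was not tested.

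Difference between gates, 15 called: DESeq2 gave 1, both genes required 52, thinning 2, Cd209a with at least 2 UMIs 5, no H2-Aa requirement 4, and leaving out 1 library 0 to 43. Share of cells, -4.62 and not past the threshold: it passed among Ptprc cells (-4.12) and without the H2-Aa requirement (-4.45, chosen after seeing the data), and leaving out 1 library gave -6.07 to -3.63, none past it. Whether replicate numbers pair the samples is not known. The correlation of deviations between libraries of the same number was 0.0113 over 13478 genes. With 2 libraries per genotype the crossed value is its negative, so it cannot decide this. With the replicate block the share was -4.51 (edgeR adjusted p = 0.445) and the difference between gates had 2 calls. The genotype test within Xcr1 Clec9a cells and its alternatives were not run, since 1 and 5 cells were below the 10 required. Depth limits every cKO value: 1 UMI is worth 174 CPM in Ms4a3 cKO 1.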
